A study of Mus musculus with 6 samples.

Results

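Major histocompatibility complex (MHC) class I and class II genes were compared between the spleens of NOD.B10 and BL/10 mice. The set was taken by name from the deposited table of exon counts: 45 genes whose symbol starts with H2- and 9 genes that act with them, B2m, Cd74, Ciita, Nlrc5, Tap1, Tap2, Tapbp, Psmb8 and Psmb9. That gave 54 members among the 47729 genes of the table. 50 members lie on chromosome 17, between positions 33915899 and 37483552 of the GRCm38 build, and the other 4 lie elsewhere (B2m on chromosome 2, Nlrc5 on chromosome 8, Ciita on chromosome 16 and Cd74 on chromosome 18).

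The study asked how gene expression in the spleen of females with Sjögren's syndrome-like disease differs from that of controls. NOD.B10Sn-H2b/J (NOD.B10) mice have the autoimmune-prone NOD background and carry the H2b haplotype; C57BL/10SnJ (BL/10) mice are the controls and carry the same haplotype. Each strain had 3 females, 1 mouse to a library, with no treatment in either. The extent of the region exchanged in NOD.B10 is not given in the sources used here.

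The 6 libraries held 15662712 to 18298451 counts. The strain names disagree within the records: the titles and strain fields give each library to the opposite strain from its description, the column name and the counting command. Strain is taken here from the description and the column name, and every direction below turns round if the titles are right. Ifi202b is known to be expressed in NOD mice and nearly silent in the C57 lines. It had 838, 624 and 485 counts in the libraries called NOD.B10 here, against 2, 0 and 0 in the other group. The records give 26 weeks for the 3 NOD.B10 libraries and for BL/10 replicate 1, and 36 weeks for BL/10 replicates 2 and 3. The extraction protocol instead describes age-matched mice, all at 26 weeks, and which is right could not be settled. If the records hold, age and strain cannot be told apart in BL/10 replicates 2 and 3, and a fit without BL/10 replicate 1 sets 26-week NOD.B10 against 36-week BL/10 mice. Summed pancreas acinar markers stood at 22.9 to 31.3 CPM in NOD.B10 (normalized counts, scaled so that libraries of unequal depth compare) and at 14244, 2190 and 113 in BL/10 replicates 1, 2 and 3, and summed neutrophil markers at 2162 to 2502 in NOD.B10 and 6142 to 12824 in BL/10. Summed T cell markers were at 1271 to 1712 in NOD.B10 and 582 to 762 in BL/10. In bulk tissue, fewer cells of a type and less RNA per cell cannot be told apart.

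Class I molecules are a heavy chain paired with the light chain B2m, and they show peptides cut by the proteasome in the cytosol to CD8 T cells and NK cells. Nearly every nucleated cell carries the classical heavy chains H2-K1 and H2-D1, while the class Ib genes of the Q, T and M regions are more restricted and partly of unknown function. Class II molecules pair an alpha with a beta chain, take up peptides from the endosome under the control of the invariant chain Cd74 and the editors H2-DM and H2-O, and are carried in the spleen mainly by B cells, dendritic cells and macrophages. Ciita switches on the class II genes and Nlrc5 the class I genes, both on a shared set of promoter boxes.

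Many of the heavy chain genes are near copies of one another. This bears on class I values, to unequal degrees, because reads that fit several genes were not counted. Among the 50-base stretches of the H2-K1 coding sequence, the one shared exactly by most members lies in exon 4, part of the coding sequence of the alpha 3 domain, and was the same in 16 genes, 10 of them members. It is shown first as H2-K1 holds it (minus strand, chr17:33997446-33997495, GRCm38), then as the closest stretch of 4 other members, with bases that differ from H2-K1 in capitals.
H2-K1: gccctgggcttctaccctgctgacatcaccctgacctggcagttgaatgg
H2-Q7: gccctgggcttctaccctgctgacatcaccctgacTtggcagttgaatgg
H2-T10: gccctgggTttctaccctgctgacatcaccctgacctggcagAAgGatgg
H2-M3: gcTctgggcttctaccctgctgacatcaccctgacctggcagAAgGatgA
H2-M2: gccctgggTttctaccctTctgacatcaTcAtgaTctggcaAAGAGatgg
H2-Q7 differed at 1 of the 50 bases, H2-T10 at 4, H2-M3 at 5 and H2-M2 at 10. Over whole transcripts, 9.63% of the 50-base windows of H2-K1 and 12.8% of those of H2-D1 also occurred in another gene, against 26.5% for H2-Q7, 50.4% for H2-T10 and 1.61% for H2-M2. B2m, Cd74, H2-Ab1, H2-Eb1, H2-Eb2 and H2-Ob had no shared window. Exons also overlap those of other genes, which unstranded counting cannot split: 29.4% of H2-T22 and 27.1% of H2-T10 lie across from genes on the opposite strand, and 85.4% of H2-Ke6 lies within Gm20427. H2-T24 had 3.17% of its windows shared and no overlapping exon. Over 25% of windows were shared for 9 tested members: H2-Q4, H2-Q5, H2-Q6, H2-Q7, H2-T-ps, H2-T10, H2-T22, H2-DMb2 and H2-Ke6. The values of these 9 are therefore uncertain.

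Members also share promoter letters. CTGATTGG, the Y box that is one of the boxes through which Ciita acts, was searched on both strands from 250 bases before to 50 bases after the RefSeq start of each gene (GRCm38.p6). It stood in 20 of the 37 members with a promoter in the table (54.1%), against 4.70% of all 27025 genes with one. Among tested members with a promoter it stood in 12 of 26 (46.2%). By class, 14 of 23 class I heavy chains and 4 of 8 class II chains and editors had it. The stretches around it are given in the direction of each gene, with the box in capitals; where it lies on the other strand it reads CCAATCAG.
H2-Aa: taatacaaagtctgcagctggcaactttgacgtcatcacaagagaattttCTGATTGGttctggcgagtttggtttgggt
H2-Eb1: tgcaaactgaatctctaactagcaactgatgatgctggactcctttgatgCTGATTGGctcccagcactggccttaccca
H2-Eb2: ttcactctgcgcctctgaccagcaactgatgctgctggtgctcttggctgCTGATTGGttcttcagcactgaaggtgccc
H2-Oa: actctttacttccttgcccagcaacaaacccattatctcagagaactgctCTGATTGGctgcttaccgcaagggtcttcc
H2-K1: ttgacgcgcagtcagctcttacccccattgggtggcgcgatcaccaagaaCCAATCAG
H2-D1: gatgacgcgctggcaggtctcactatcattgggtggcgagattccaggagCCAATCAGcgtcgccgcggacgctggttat
The class II stretches are chr17:34287845-34287924 for H2-Aa (minus strand), chr17:34305755-34305834 for H2-Eb1, chr17:34325522-34325601 for H2-Eb2 and chr17:34092283-34092362 for H2-Oa (plus strand). Those of class I are chr17:34000332-34000389 for H2-K1 (minus strand) and chr17:35262991-35263070 for H2-D1 (plus strand). The H2-K1 box lies past the RefSeq start, its first letter being base 9. GCAACNGAT, letters of the X box, stood in the promoters of H2-Eb1 and H2-Eb2 among members and in 0.474% of all genes. GGGATTCCC, letters bound by NF-kappa B, stood in those of H2-K1, H2-D1, H2-Q6 and H2-Q7 and in 0.414% of all genes. Letters of an interferon response element were also searched and were not more frequent among members. They stood in the promoters of 3 of the 37 members (8.11%), B2m, H2-T22 and H2-T23, against 9.09% of all genes. Of the 8 class II chains and editors, 0 had them. A match is only a match of letters.

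Of the 54 members, 36 passed the low count filter and 18 did not. 8 of the 18 (H2-Pb, H2-M10.2, H2-M10.3, H2-M10.5-ps1, H2-M9, H2-M1, H2-M10.5 and H2-M10.6) had no count in any library. H2-Pa, H2-Ea-ps, H2-Q3, H2-M10.1, H2-M10.4, H2-M11, H2-M6-ps, H2-M5, H2-T3 and H2-Bl had between 0 and 12 counts in a library. H2-Ea-ps, the alpha chain locus that makes no protein in the H2b haplotype, reached at most 2 counts in a NOD.B10 library and 1 in a BL/10 library. A count of 0 in a library allows up to 3 counts, or 0.164 to 0.191 CPM before TMM scaling, which covers counting error only.

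1 of the 36 tested members (2.78%) differed between the strains, H2-M2, which was higher in NOD.B10. The rule was an adjusted p below the 0.05 threshold by the quasi-likelihood test of edgeR, and over the 15330 genes with enough counts it called 17.3%. Members had a median log2 fold change of 0.24 for NOD.B10 over BL/10, against 0.00 for all genes, with 31 members above 0 and 5 below. The libraries of the strains did not overlap for 4 members, H2-M2, Ciita and H2-T-ps with NOD.B10 above and H2-T24 with NOD.B10 below, against 38% of all tested genes. Among the genes of the same chromosome 17 interval that are not members, 6 of 111 (5.41%) were called. DESeq2 called 3 members, H2-M2, Ciita and H2-T24, at a background of 17.6%. The edgeR count changed with single libraries. It was 0 without NOD.B10 replicate 1, NOD.B10 replicate 3 or BL/10 replicate 2, while without BL/10 replicate 1, 10 of 37 tested members were called, 9 higher and 1 lower in NOD.B10, at a background of 26.3% of all genes. With the 26-week libraries only (1 BL/10 library, assumed to vary like the others), 0 members were called, and the log2 fold change turned sign for 14 of the 36. Scaled to summed B cell markers, 1 member was called, H2-T24, lower in NOD.B10, at a background of 13%, and 20 of the 36 turned sign. This scaling put the median log2 fold change at -0.32 over all genes and at -0.04 over the members.

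**Figure D1:**
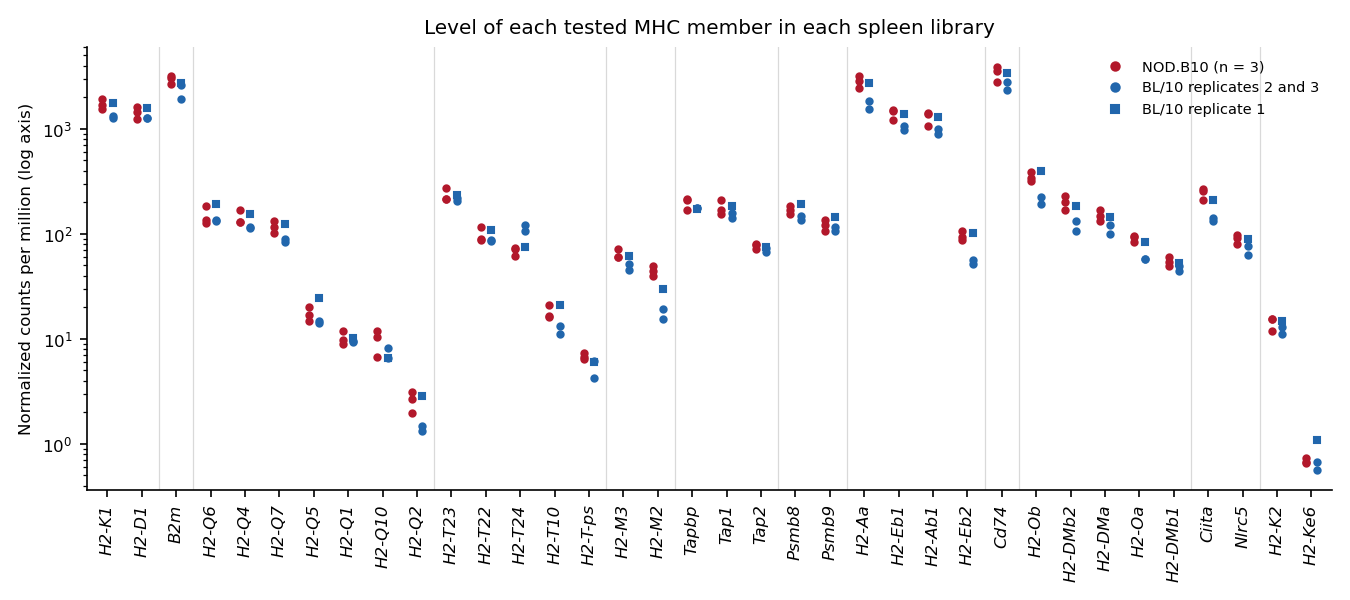
Normalized counts (CPM, log axis) of the 36 tested members in each of the 6 libraries, ordered by role from class I heavy chains to transactivators; red circles are NOD.B10, blue circles BL/10 replicates 2 and 3, blue squares BL/10 replicate 1. BL/10 replicate 1 lies near the NOD.B10 libraries for H2-Aa (2730 against 2437 to 3182) and below them for H2-M2 (29.8 against 39.8 to 49.1).

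H2-M2 is a class Ib heavy chain gene of the M region, and its function is not well known. It ends the chromosome 17 interval, and the sources used here do not say if it lies in the region exchanged in NOD.B10. It stood at 44.5, 39.8 and 49.1 CPM in NOD.B10 replicates 1 to 3 and at 29.8, 19.1 and 15.3 in BL/10. Every NOD.B10 library was above every BL/10 library, and BL/10 replicate 1 was the highest of its strain. The log2 fold change was 1.05 (SE 0.23, n = 3 mice per strain, adjusted p = 0.0190, edgeR quasi-likelihood). The call was lost without NOD.B10 replicate 1, NOD.B10 replicate 3 or BL/10 replicate 2 (adjusted p = 0.0644, 0.0652 and 0.0793 in edgeR) and was held without each of the others. In the 26-week libraries only, the log2 fold change was 0.58 (adjusted p = 0.0727, edgeR), and scaled to B cell markers it was 0.80 (adjusted p = 0.0887). Its neighbour H2-M3, which shows formylated peptides, was at 72.0, 60.3 and 60.9 in NOD.B10 and at 61.9, 45.5 and 51.9 in BL/10, where the strains overlapped. Without BL/10 replicate 1, H2-M3 was called higher in NOD.B10 (log2 fold change 0.39, adjusted p = 0.0427, edgeR). In the 26-week libraries only, its log2 fold change was 0.055. The ratio of H2-M2 to H2-M3 counts was 0.619, 0.661 and 0.807 in NOD.B10 and 0.481, 0.420 and 0.295 in BL/10 (exact permutation test, two-sided p = 0.1, the smallest that 3 against 3 libraries can give).

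Neither classical heavy chain was called. H2-K1 was at 1935, 1543 and 1703 CPM in NOD.B10 and at 1748, 1332 and 1268 in BL/10 (log2 fold change 0.25, SE 0.16, adjusted p = 0.301, edgeR quasi-likelihood). H2-D1 was at 1632, 1237 and 1459 in NOD.B10 and at 1565, 1265 and 1269 in BL/10 (log2 fold change 0.08, SE 0.15, adjusted p = 0.746, edgeR quasi-likelihood). For both genes BL/10 replicate 1 stood among the NOD.B10 libraries, and the sign turned when only the 26-week libraries were used or the libraries were scaled to B cell markers. With the B cell scaling the median log2 fold change over all genes was -0.32. H2-K1 counts were 1.19, 1.25 and 1.17 times those of H2-D1 in NOD.B10 and 1.12, 1.05 and 0.999 times in BL/10, without overlap (exact permutation test, two-sided p = 0.1, the smallest possible).

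B2m, the light chain of all these heavy chains, had the highest level per kilobase of any member, 3487 CPM per kilobase in NOD.B10 and 2835 in BL/10. It was at 3078, 2705 and 3215 CPM in NOD.B10 and at 2746, 2626 and 1944 in BL/10, with BL/10 replicate 1 just above the lowest NOD.B10 library. The log2 fold change was 0.30 (SE 0.16, adjusted p = 0.229, edgeR quasi-likelihood).

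None of the 7 tested Q region genes was called by edgeR or DESeq2, and 0 had an unadjusted p under 0.05. Without BL/10 replicate 1, H2-Q7 was called by edgeR (log2 fold change 0.43, adjusted p = 0.0343), and in the 26-week libraries only its log2 fold change was -0.10. H2-Q4 was at 167, 129 and 131 in NOD.B10 and at 154, 114 and 116 in BL/10. H2-Q6 was at 185, 135 and 126 in NOD.B10 and at 194, 137 and 133 in BL/10. H2-Q7, which codes for the Qa-2 antigen, was at 133, 102 and 116 in NOD.B10 and at 125, 89.7 and 83.0 in BL/10. The strains overlapped for all 7. H2-Q5 was at 20.2, 17.01 and 14.7 in NOD.B10 and at 24.4, 14.9 and 14.1 in BL/10. H2-Q1 had 197, 158 and 159 unscaled counts in the NOD.B10 libraries, against 186, 143 and 163 for the controls. H2-Q10, known as a secreted liver product, was at 11.9, 10.32 and 6.69 CPM in NOD.B10 against 6.57, 8.11 and 6.65. H2-Q2 was at 3.11, 1.97 and 2.70 against 2.88, 1.34 and 1.48.

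Of the 5 tested T region genes, H2-T24 had the lowest fold change of any member. It was at 72.6, 71.9 and 62.2 in NOD.B10 and at 74.6, 121 and 107 in BL/10, so that BL/10 replicate 1 was just above the highest NOD.B10 library. Its log2 fold change was -0.55 (SE 0.17, adjusted p = 0.0658, edgeR quasi-likelihood), -0.74 without BL/10 replicate 1 (adjusted p = 0.00349) and -0.12 in the 26-week libraries only (adjusted p = 0.668). H2-T23, which codes for Qa-1, a ligand of NK cell receptors, was at 271, 216 and 214 in NOD.B10 and at 232, 205 and 219 in BL/10. H2-T22 and H2-T10 are ligands of some gamma delta T cells, and both overlapped between the strains. H2-T22 was at 116, 87.4 and 89.9 in NOD.B10 and at 109, 86.8 and 85.97 in BL/10. H2-T10 was at 21.2, 16.03 and 16.4 against 20.9, 11.2 and 13.35. H2-T-ps, named as a pseudogene, was at 7.42, 6.76 and 6.46 in NOD.B10 and at 6.03, 4.23 and 6.14 in BL/10.

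None of the 5 genes that cut and load class I peptides was called by edgeR or DESeq2, and 0 had an unadjusted p under 0.05. Tap1, one chain of the peptide transporter, was at 212, 155 and 167 in NOD.B10 and at 184, 157 and 141 in BL/10. Its partner Tap2 was at 79.7, 71.1 and 78.4 against 74.5, 73.3 and 67.3. Tapbp (tapasin), which bridges the transporter and the heavy chain, was at 211, 168 and 213 in NOD.B10 and at 174, 178 and 176 in BL/10. Psmb8, an immunoproteasome subunit, was at 185.5, 153 and 170 in NOD.B10 and at 191, 147 and 134 in BL/10. Psmb9, another, was at 134.5, 106.5 and 121 against 144, 116 and 107. The 5 genes had log2 fold changes from -0.02 to 0.17 and overlapped between strains. H2-K2, a K region locus of class I sequence, was at 11.9 to 15.6 in NOD.B10 and 11.1 to 14.7 in BL/10, and H2-Ke6, which codes for a steroid dehydrogenase, at 0.658 to 0.731 and 0.568 to 1.09. Nlrc5, the class I transactivator, was at 97.4, 79.8 and 90.6 in NOD.B10 and at 90.1, 76.3 and 62.6 in BL/10, which also overlapped.

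None of the 4 tested class II chains was called by edgeR or DESeq2 with all libraries, and 0 had an unadjusted p under 0.05. H2-Aa was at 2860, 2437 and 3182 CPM in NOD.B10 and at 2730, 1845 and 1531 in BL/10 (log2 fold change 0.47, SE 0.22, adjusted p = 0.171, edgeR quasi-likelihood). H2-Ab1 was at 1396, 1077 and 1403 in NOD.B10 and at 1307, 892 and 1003 in BL/10 (log2 fold change 0.28, SE 0.18, adjusted p = 0.305, edgeR quasi-likelihood). H2-Eb1 was at 1524, 1216 and 1467 in NOD.B10 and at 1395, 968 and 1063 in BL/10 (log2 fold change 0.30, SE 0.17, adjusted p = 0.247, edgeR quasi-likelihood). For each of the 3 chains BL/10 replicate 1 lay above the lowest NOD.B10 library while BL/10 replicates 2 and 3 lay below all of them. H2-Eb2 showed the same order, at 93.7, 86.7 and 106 in NOD.B10 and at 102, 55.9 and 51.3 in BL/10. Without BL/10 replicate 1, H2-Aa and H2-Eb2 were called (log2 fold changes 0.73 and 0.82, adjusted p = 0.0181 and 0.00222 in edgeR). In the 26-week libraries only, they were at 0.05 and -0.09 (adjusted p = 0.919 and 0.752 in edgeR). Cd74, the invariant chain, was at 3593, 2814 and 3874 in NOD.B10 and at 3407, 2349 and 2776 in BL/10 (log2 fold change 0.27, SE 0.18, adjusted p = 0.333, edgeR quasi-likelihood).

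Proportions of the chains were steadier for some pairs than for others. H2-Eb1 counts were 1.05 to 1.13 times those of H2-Ab1 in all 6 libraries, and Cd74 counts 2.57 to 2.77 times. H2-Aa counts were 2.05 to 2.27 times those of H2-Ab1 in 5 libraries and 1.53 times in BL/10 replicate 3. H2-Eb2 counts were 0.0671, 0.0805 and 0.0752 times those of H2-Ab1 in NOD.B10 and 0.0779, 0.0627 and 0.0512 times in BL/10.

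**Figure D2:**
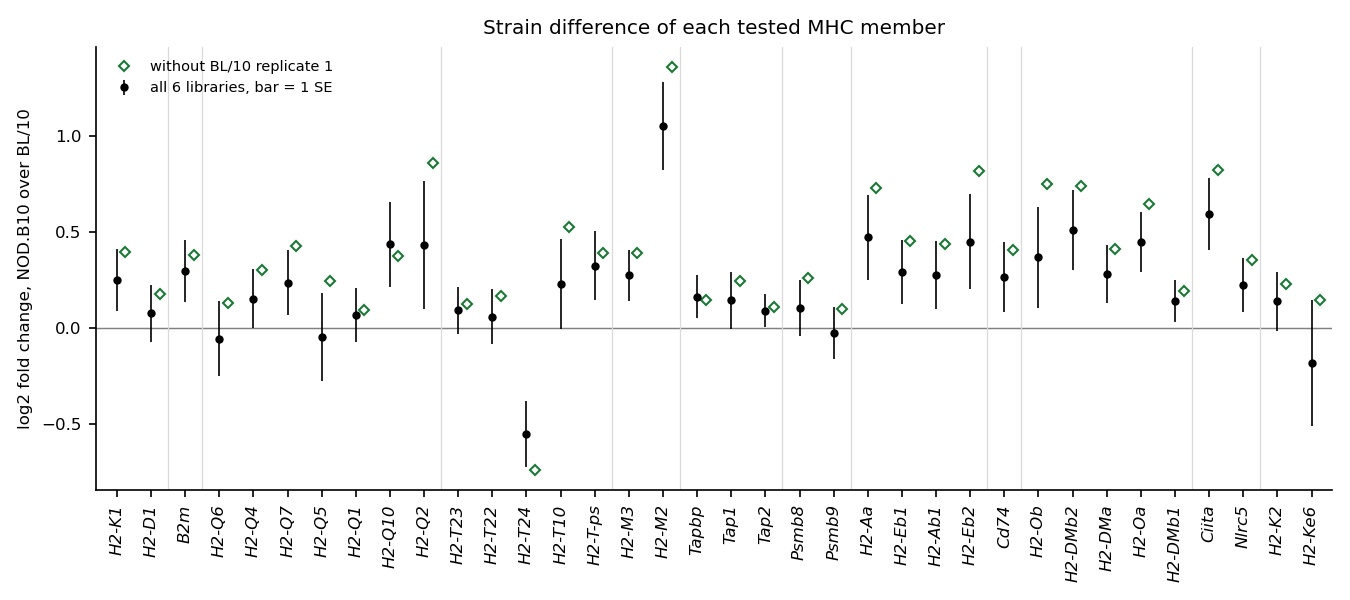
log2 fold change of NOD.B10 over BL/10 for each tested member (black points, bars of 1 standard error, 3 libraries per strain) and without BL/10 replicate 1 (green diamonds). H2-M2 is highest at 1.05 and H2-T24 lowest at -0.55, and for most members the diamond lies farther from 0 than the point.

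The editors that exchange class II peptides had their lowest values in BL/10 too, with overlap between the strains for each. H2-DMb2 was at 203, 168 and 229 in NOD.B10 and at 183, 106 and 132 in BL/10, and H2-Oa at 93.8, 83.95 and 95.7 in NOD.B10 and at 84.3, 57.3 and 58.2 in BL/10. H2-Ob, the partner of H2-Oa and expressed largely in B cells, was at 342, 316 and 391 in NOD.B10 and at 399, 191 and 222 in BL/10, with BL/10 replicate 1 the highest of all 6 libraries. H2-DMa was at 168, 132 and 147 in NOD.B10 and at 145, 99.98 and 122 in BL/10. H2-DMb1 was at 59.9, 49.01 and 53.4 against 53.4, 44.5 and 49.2. None of the 5 was called with all libraries by edgeR or DESeq2, and 2 (H2-Oa and H2-DMb2) had an unadjusted p under 0.05. H2-Oa had the smallest adjusted p, 0.0828 by edgeR's quasi-likelihood test. Without BL/10 replicate 1, H2-Oa, H2-DMb2 and H2-Ob were called, and in the 26-week libraries only their log2 fold changes were 0.11, 0.13 and -0.19.

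Ciita, the transactivator of the class II genes, was at 254, 212.4 and 270 CPM in NOD.B10 and at 212.1, 133 and 142 in BL/10. The lowest NOD.B10 library and BL/10 replicate 1 all but met. The log2 fold change was 0.60 (SE 0.19, adjusted p = 0.0674, edgeR quasi-likelihood); DESeq2 called it (0.59, adjusted p = 0.0233), and edgeR did so without BL/10 replicate 1 (0.82, adjusted p = 0.00369). In the 26-week libraries only it was 0.21 (adjusted p = 0.527, edgeR), and scaled to B cell markers 0.33 (adjusted p = 0.594, edgeR).

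Class II chains and B cell markers were summed in each library. The 4 tested chains summed to 5874, 4817 and 6158 CPM in NOD.B10 and to 5533, 3760 and 3648 in BL/10 (log2 difference 0.38, exact permutation test, two-sided p = 0.2). Summed markers of B cells were at 5087, 4365 and 5661 in NOD.B10 and at 5823, 3279 and 3584 in BL/10. By edgeR 0 of the 12 markers were called, beside 17.3% of all genes. Without BL/10 replicate 1, 8 were called, beside 26.3% of all genes. 1 of the 12 had an unadjusted p under 0.05, and DESeq2 called 1. All 12 had a log2 fold change above 0, and their median of 0.24 was close to that of the members (0.24). Relative to B cell markers the class II chains came to 1.15, 1.10 and 1.09 in NOD.B10 and to 0.950, 1.15 and 1.02 in BL/10, a log2 difference of 0.10 (exact permutation test, two-sided p = 0.3). Dendritic cell markers summed to 729 to 913 in NOD.B10 and 771 to 814 in BL/10, and macrophage markers to 3645 to 4242 and 3092 to 3652. The part of these cells in the class II levels was not tested. The ratio of Ciita to B cell marker counts did not overlap, at 0.0499, 0.0487 and 0.0477 in NOD.B10 and 0.0364, 0.0406 and 0.0396 in BL/10 (exact permutation test, two-sided p = 0.1, the smallest possible), while the edgeR fit scaled to the same markers did not call Ciita. H2-M2 relative to the same markers was 0.00875, 0.00912 and 0.00868 in NOD.B10 and 0.00511, 0.00583 and 0.00428 in BL/10, also without overlap.

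**Figure D3:**
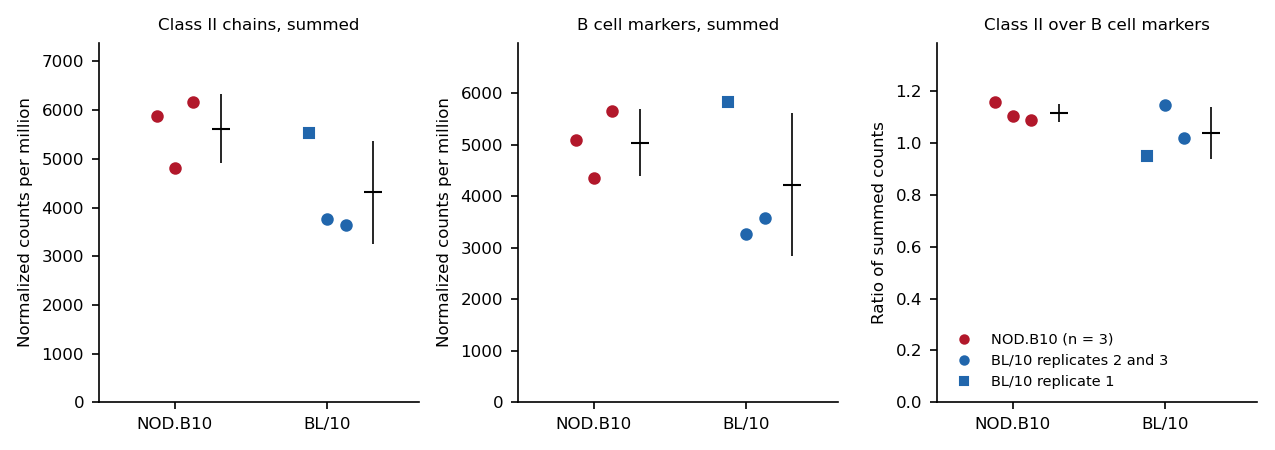
Summed class II chains (left) and summed B cell markers (middle) in CPM, and the ratio of their counts (right), by library, with the mean and SD of 3 libraries beside the points. BL/10 replicate 1 (square) is high in both sums, and the ratios of the strains overlap.

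**Figure D4:**
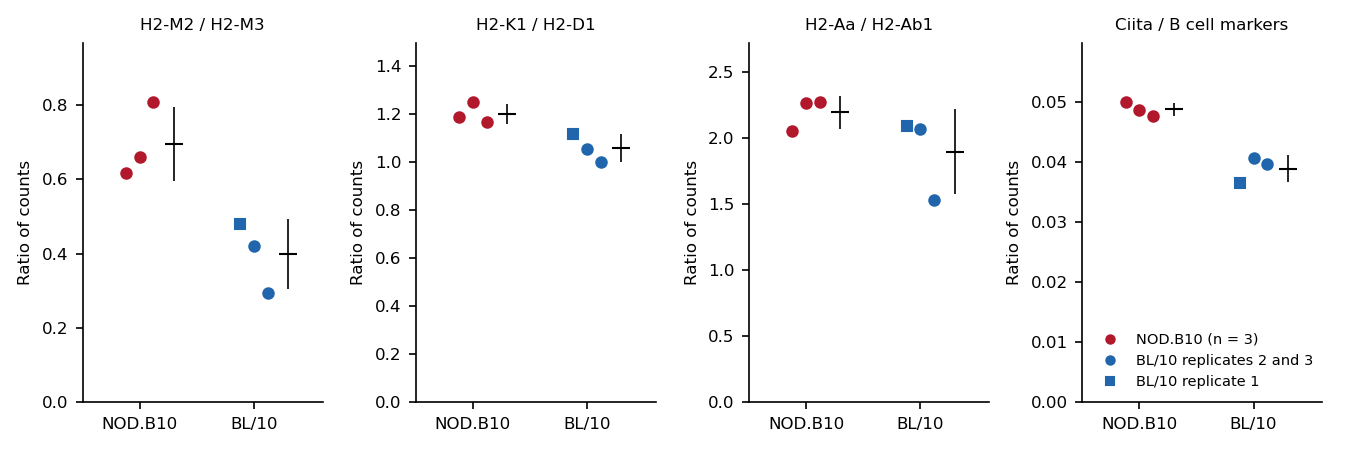
Ratios of counts within each library, with the mean and SD of 3 libraries: H2-M2 to H2-M3, H2-K1 to H2-D1, H2-Aa to H2-Ab1, and Ciita to summed B cell markers. The strains do not overlap in any of these but H2-Aa to H2-Ab1, where BL/10 replicate 3 is at 1.53. The ratios were chosen after their values were seen. Others overlapped, among them H2-T24 to H2-T23, H2-DMb2 to H2-DMb1, H2-Oa to H2-DMa and B2m to the classical heavy chains. By level, 38% of all tested genes did not overlap.

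Genes that work with the members were read from 7 lists, of which 16 of 93 tested genes were called, at the background of 17.3% (a gene on several lists was counted once). None of the 8 class I loading partners was called by edgeR (1 at an unadjusted p under 0.05 and 0 by DESeq2), the smallest p being that of Sec61b (log2 fold change -0.21), a part of the protein channel of the endoplasmic reticulum. None of the 19 proteasome genes was called by edgeR (2 at an unadjusted p under 0.05 and 1 by DESeq2), the smallest p being that of Psmb4 (log2 fold change -0.35), a constitutive subunit. Of 12 class II processing partners 1 was lower in NOD.B10, the tetraspanin Cd9, at 82.0, 86.7 and 73.2 against 130, 97.1 and 117 in BL/10 (log2 fold change -0.51, adjusted p = 0.0281, edgeR quasi-likelihood). When 1 library was left out, its adjusted p reached 0.113 (edgeR quasi-likelihood).

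Of 21 regulators of class I and II genes 3 were higher in NOD.B10. Over all genes 17.3% were called in either direction, the share to set beside each list of this paragraph. Irf1, an interferon-induced activator of class I promoters, was at 164, 133 and 141 against 118, 110 and 99.4 (log2 fold change 0.42, adjusted p = 0.0367, edgeR quasi-likelihood). Prdm1, which represses Ciita as B cells become plasma cells, was at 19.6, 16.8 and 19.1 against 12.7, 10.7 and 12.1, and Irf4, a factor of activated B cells and plasma cells, at 108, 115 and 121 against 96.9, 64.7 and 75.5. When 1 library was left out, the adjusted p reached 0.139 for Irf1, 0.130 for Irf4 and 0.0486 for Prdm1 (edgeR quasi-likelihood). Summed plasma cell markers were at 3413 to 3910 in NOD.B10 and 2176 to 2764 in BL/10. Prdm1 and Irf4 are themselves among the 9 markers summed, and the part of plasma cells in their values was not tested. Of 9 tested costimulatory genes 1 was higher, Cd274 (PD-L1), at 64.8, 52.3 and 60.9 against 47.7, 42.6 and 47.4. Of 7 tested class I-like genes outside H2, 2 were higher, Procr and the NK cell ligand H60b, the latter at 1.91 to 2.39 in NOD.B10 and near the floor at 0.114 to 0.272 in BL/10. When 1 library was left out, the adjusted p reached 0.172 for Cd274, 0.156 for Procr and 0.0042 for H60b (edgeR quasi-likelihood).

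Genes of the interferon gamma response, a pathway that also drives class I and II genes, were called beside a background of 17.3%. 9 of 19 tested were higher in NOD.B10 and 1 (Tgtp1) lower, with a median log2 fold change of 0.51. Gbp2b was at 73.2, 43.1 and 36.5 CPM in NOD.B10 and at 1.30, 2.35 and 1.08 in BL/10. Irgm2 was at 120, 133 and 95.8 against 56.3, 67.5 and 61.2, Gbp2 at 132, 84.1 and 97.0 against 56.3, 55.1 and 49.3, and Gbp4 at 69.1, 52.1 and 57.03 against 42.7, 34.3 and 32.1. These are GTPases of cell-autonomous defence. When 1 library was left out, the adjusted p reached 0.0023 for Gbp2b, 0.0204 for Irgm2, 0.0343 for Gbp2 and 0.0561 for Gbp4 (edgeR quasi-likelihood). With all libraries, 15 of 17 T cell markers were called higher in NOD.B10 (median 1.26 on the log2 scale), and their part in the values of this list was not tested. Of the members, H2-M2 alone was called by edgeR, and the difference between the list and the members was not tested.

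**Figure D5:**
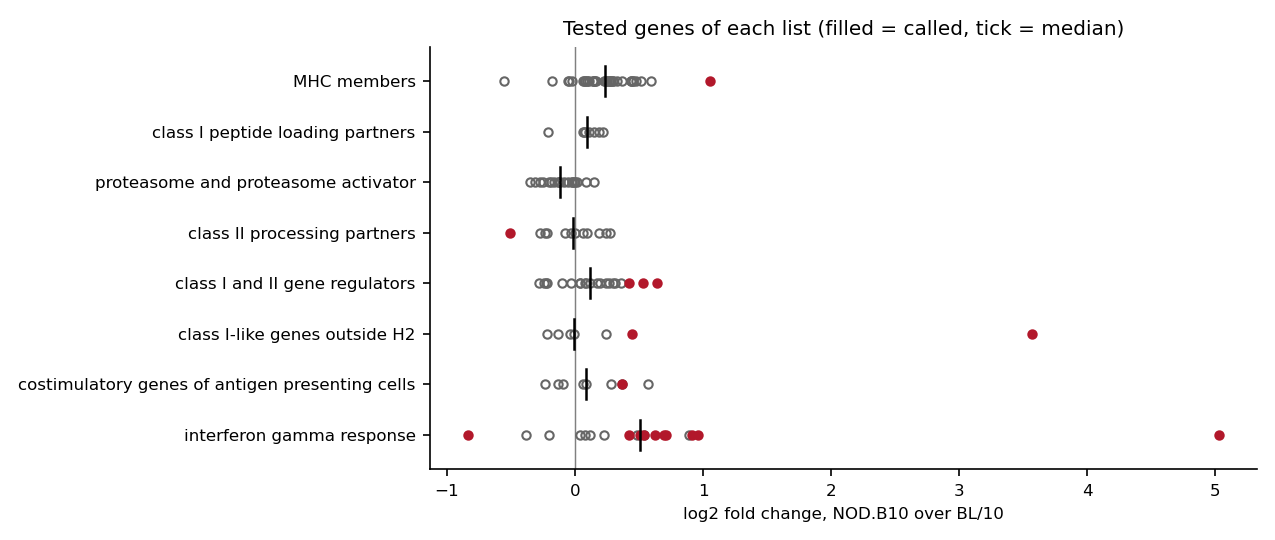
log2 fold change of NOD.B10 over BL/10 for each tested gene of the members and of the 7 lists; filled red points were called by edgeR, open points were not, and the tick is the median of each row. The interferon gamma row has 10 called genes of 19 and a median of 0.51, and the row of members has 1 called gene of 36 and a median of 0.24.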

How the data were processed

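The authors sequenced spleen RNA (TruSeq libraries, single-end reads). The deposited table holds raw, unnormalized read counts, which per the file headers the authors made with featureCounts 1.5.1 on Ensembl 84 exons, by default without strand and without reads that fit several genes. The paper names Tophat2 and mm10, and the submitters' processing notes name HISAT2 2.0.5 and GRCm38. Libraries of both strains were aligned to the same reference, and the effect of NOD sequence differences on the counts was not tested. Symbols came from the gene name tables for 47224 of 47729 identifiers, and transcripts from GENCODE M21. Counts were filtered by edgeR's filterByExpr, scaled by TMM and tested with the quasi-likelihood test (edgeR 4.0.16, R 4.3.3), with p-values adjusted by Benjamini-Hochberg over all 15330 tested genes at a threshold of 0.05. Levels are CPM on the TMM-scaled library size. DESeq2 1.42.0, limma 3.58.1 and other settings were alternatives. Scripts were tested on simulated data. Every chain, editor, light chain, invariant chain, transactivator, loading and immunoproteasome member that passed the filter is given by library; full statistics are given for called members and for H2-K1, H2-D1, B2m, H2-Aa, H2-Ab1, H2-Eb1, Cd74 and Ciita; of each list the called genes are named (at most the 4 with the smallest p) or, where none was called, the 1 with the smallest p. H2-T24 and the other members given more than their values by library were chosen after their values were seen, as were the ratios. The members and lists were chosen with earlier results of these data known.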

Additional observations from a re-analysis of the deposited data

How the results depend on the processing

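The number of members called was 1, and 0 at an adjusted p under 0.01 or with no filter beyond 1 count. It was 3 with DESeq2 and 5 with limma-voom with quality weights. Of all genes, 17.3% were called in the main fit, 17.6% with DESeq2, 26.3% without BL/10 replicate 1 and 13% with the B cell scaling. For the other settings that share was not computed, so their counts cannot be read as a result about the members. The 26-week fit was chosen after seeing the data, and its lone BL/10 library is assumed to vary like the others. DESeq2 was run at both the 0.05 threshold and its default filtering level, and the second run was added after seeing the data; both called 3. Leaving out 1 library gave 0 to 10, with 10 without BL/10 replicate 1 and 0 without NOD.B10 replicate 1, NOD.B10 replicate 3 or BL/10 replicate 2. The cause was not tested. With the replicate block, which joins libraries by replicate number only, 4 members were called (Ciita, H2-Oa, H2-DMb2 and H2-M2). Deviations of same-numbered libraries correlated at 0.0316, 0.172 and -0.0837, and not every library correlated best with its own number. With 3 libraries per strain these correlations cannot settle whether the libraries were paired. Partner genes, 16 of 93 called, were 5 at an adjusted p under 0.01 and 5 to 22 when 1 library was left out. The 22 of 93 came without BL/10 replicate 1, where 26.3% of all genes were called. Relative to B cell markers the summed class II difference was 0.10 and the class I difference -0.13 on the log2 scale. With libraries scaled to B cell markers the median log2 fold change was -0.32 over all genes and -0.04 over the members; the sign turned for 20 of the 36 tested members, among them, of the genes with full statistics, H2-K1 (-0.036), H2-D1 (-0.227), B2m (-0.018), H2-Ab1 (-0.013) and Cd74 (-0.029), and H2-T24 was called (-0.93, adjusted p = 0.0422 in edgeR) while H2-M2 was not (0.80, adjusted p = 0.0887). In the 26-week libraries the sign turned for 14 of 36, among them H2-K1 (-0.019), H2-D1 (-0.118) and H2-Ab1 (-0.017). Leaving out 1 library, H2-D1 ranged from -0.018 to 0.179. Of 126 log2 fold changes over 9 genes and 14 settings, 106 kept their sign and side of the threshold. Only H2-M2 of these genes was called in the main fit, so for the others this mostly means staying uncalled. H2-M2 lost its call in 5 of the 14 settings.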
